A study of Mus musculus with 6 samples.

Results

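The 10 genes described here encode transcription factors of the dorsal midbrain and tectum: Barhl1, Barhl2, Pou4f1, Pou4f2, Pou4f3, Dmbx1, Pax3, Pax7, Tfap2b and Tfap2d. They are 10 of 42396 genes in the deposited count tables. The set was chosen by measured CPM values, because Barhl1, Pou4f2 and Dmbx1 followed the replicate number of the libraries in both groups, so the differences between replicate numbers described below chose the genes and are given only as descriptions. The study sequenced RNA from primary cultures of mouse ventral midbrain, to learn how lowering circRmst, a circular transcript of the long non-coding RNA gene Rmst, changes gene expression. All cells came from wild-type (WT) embryos at embryonic day 14, were plated at 150000 per well and were infected on the day of plating with lentivirus (multiplicity of infection 5). The virus carried pll3.7-shRmstI, a hairpin against circRmst, in the 3 knockdown libraries, and pll3.7-Scr2, a scramble hairpin, in the 3 control libraries. After 3 days in vitro, RNA of 2 to 3 wells per condition was harvested, and libraries made after removal of ribosomal RNA were sequenced in paired reads of 150 bases.

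The labels speak of 3 independent cultures and number the libraries of each group from 1 to 3, but leave unsaid whether libraries of 1 number share a culture. The spread between libraries may therefore be partly technical, and the replicate number is used below only as the label prints it. Counts assigned to genes summed to between 35256611 and 43646521 in the knockdown libraries and between 27248934 and 41982557 in the control libraries. Rmst was at 105, 97.1 and 115 CPM (counts scaled to the size and composition of the library) in knockdown libraries 1, 2 and 3, against 115, 117 and 124 CPM in control libraries 1, 2 and 3. Rmst had a log2 fold change of -0.16 ± 0.10 (SE; edgeR quasi-likelihood test, unadjusted p = 0.117), and a gene-level count does not measure the circular RNA. The labels call the cells dopamine neurons. Th, which encodes the enzyme that limits dopamine synthesis, was at 36.9, 51.6 and 59.5 CPM in knockdown libraries and 40.7, 48.1 and 60.9 CPM in control libraries, and the dopamine transporter gene Slc6a3 lay between 45.6 and 71.5 CPM over all 6 libraries. Markers of GABAergic neurons (Gad1 at 242 to 303 CPM) and of radial glia and astrocytes (Slc1a3 at 255 to 317 CPM) were present as well, so the cultures were not of dopamine neurons alone. In such bulk samples, fewer cells of a type and less RNA per cell cannot be told apart.

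The dorsal midbrain forms the tectum, that is the superior and inferior colliculi, while dopamine neurons arise from the floor plate on the ventral side. In the embryonic neural tube, dorsal progenitors are patterned by Wnt and BMP signals from the roof plate, and paired-box, homeobox, POU and AP-2 factors then mark the neurons that form there. Pax3 and Pax7 encode paired-box factors of dorsal progenitors, and Pax7 is also known for its part in the superior colliculus. Dmbx1 encodes a paired-type homeodomain factor named for its expression in diencephalon and mesencephalon. Barhl1 and Barhl2 encode BarH-like homeodomain factors of postmitotic neurons. Pou4f1, Pou4f2 and Pou4f3, also called Brn3a, Brn3b and Brn3c, encode POU factors best known from sensory neurons, retinal ganglion cells and hair cells of the inner ear, in that order. Tfap2b and Tfap2d encode AP-2 factors, and mice without Tfap2d lack much of the inferior colliculus.

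The 250 bases before the annotated start are printed for 5 of these genes, since they carry the comparisons below. They are the 3 genes that chose the set (Barhl1, Pou4f2 and Dmbx1) and the neighbours Tfap2b and Tfap2d, whose levels across the libraries differed. All are from RefSeq, build GRCm38.p6, written 5′ to 3′ on the strand of the gene, and each match to the homeodomain core TAAT on either strand (TAAT or ATTA) is in capitals. The windows are chr2:28916669-28916918 (minus strand) for Barhl1, chr8:78436648-78436897 (minus strand) for Pou4f2, chr4:115939927-115940176 (minus strand) for Dmbx1, chr1:19211804-19212053 (plus strand) for Tfap2b and chr1:19102772-19103021 (plus strand) for Tfap2d. For Barhl1, Dmbx1 and Tfap2b the start lies inside the annotated span of the gene. The annotation holds 2 starts for Barhl1 and 3 for Tfap2d, and the outermost was used. For Dmbx1 alone, the bases checked downstream of the start were not found in a transcript of the gene, so its start is less certain.
Barhl1: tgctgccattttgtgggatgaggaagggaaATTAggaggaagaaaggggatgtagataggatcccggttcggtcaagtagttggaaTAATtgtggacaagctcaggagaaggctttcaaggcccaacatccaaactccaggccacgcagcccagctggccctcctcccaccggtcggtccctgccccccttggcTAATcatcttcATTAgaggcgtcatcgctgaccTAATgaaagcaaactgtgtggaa
Pou4f2: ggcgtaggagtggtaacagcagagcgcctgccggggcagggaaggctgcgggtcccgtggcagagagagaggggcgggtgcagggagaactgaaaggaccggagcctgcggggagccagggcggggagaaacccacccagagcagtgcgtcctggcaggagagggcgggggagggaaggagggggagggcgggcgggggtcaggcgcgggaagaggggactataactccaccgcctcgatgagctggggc
Dmbx1: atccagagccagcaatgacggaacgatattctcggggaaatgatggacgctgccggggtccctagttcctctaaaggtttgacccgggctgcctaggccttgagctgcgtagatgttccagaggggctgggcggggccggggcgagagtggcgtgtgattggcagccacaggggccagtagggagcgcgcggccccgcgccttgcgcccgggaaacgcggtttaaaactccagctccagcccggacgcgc
Tfap2b: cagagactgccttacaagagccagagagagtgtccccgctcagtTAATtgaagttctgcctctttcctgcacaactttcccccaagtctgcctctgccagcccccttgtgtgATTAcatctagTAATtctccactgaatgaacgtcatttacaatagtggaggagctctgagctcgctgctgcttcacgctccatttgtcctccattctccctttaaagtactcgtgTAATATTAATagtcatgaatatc
Tfap2d: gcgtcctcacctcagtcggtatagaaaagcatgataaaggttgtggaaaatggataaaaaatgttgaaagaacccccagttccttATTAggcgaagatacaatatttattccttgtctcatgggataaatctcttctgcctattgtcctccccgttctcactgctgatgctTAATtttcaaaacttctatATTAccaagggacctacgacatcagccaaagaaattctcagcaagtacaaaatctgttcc
The 3 genes that chose the set did not share this feature. The core was found 5 times in the Barhl1 window and 0 times in the Pou4f2 and Dmbx1 windows, against 6 times in the Tfap2b window and 3 times in the Tfap2d window. Of 27025 promoter windows of the same length, 55.3% hold it. The G+C content was 52.8% for Barhl1, 70.8% for Pou4f2, 65.2% for Dmbx1, 46.4% for Tfap2b and 39.6% for Tfap2d. In all, 8 of the 10 genes had an entry in the promoter table, and the windows of Barhl2, Pou4f1 and Pax7 held 0 cores. On either strand, 5 longer motifs were found in 0 of the 8 windows: TAATTA (in 4.9% of all windows), TAATCC (6.38%), GCCNNNGGC (13.6%), CTTTGA (3797 of the 27025 windows) and TATAAA (13.0%). TAATTA and TAATCC both contain the core. These are matches of letters only.

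The only close neighbours in the set are Tfap2d and Tfap2b, which stand on the same strand of chromosome 1 with 35.0 kb between the end of Tfap2d (position 19173948) and the start of Tfap2b (19208908, GRCm38). Pax3 lies further along chromosome 1, and Dmbx1 and Pax7 both lie on chromosome 4. Members of a family share too little sequence for a read of 150 bases to match both along its whole length. The longest identical stretch between transcripts was 71 bases, for Pou4f1 and Pou4f2, and it was 23 bases for Barhl1 and Barhl2, 26 for Pax3 and Pax7, and 14 for Tfap2b and Tfap2d. Pax7 overlaps the long non-coding RNA gene Gm46873, which had 4 to 19 counts per library. Tfap2d overlaps the antisense gene Gm15825, which had 1 to 4 counts, and the antisense pseudogene Gm10075, whose reads were not analysed here. The strand setting of the authors' counting was not given in the sources used here, so reads of these overlaps could not be kept apart, but the counts of Gm46873 and Gm15825 were few beside the 412 to 1474 counts of Pax7 and the 181 to 1097 counts of Tfap2d. Over all 10 genes and 6 libraries, counts ran from 10 to 6092, and all 10 genes passed the filter on low counts that left 17439 genes.

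The genes that chose the set were high in the libraries numbered 2 of both groups. Barhl1, a homeobox gene of postmitotic neurons, was at 8.80, 25.9 and 8.55 CPM in knockdown libraries 1, 2 and 3, against 8.32, 26.8 and 8.70 CPM in control libraries 1, 2 and 3. Both libraries numbered 2 stood alone, and the other 4 lay between 8.32 and 8.80 CPM. Pou4f2 was at 5.97, 19.4 and 5.76 CPM in knockdown libraries, against 5.78, 22.7 and 4.64 CPM in control libraries. Dmbx1 showed the widest range on the log2 scale, at 0.873, 14.4 and 0.765 CPM in knockdown libraries and 1.22, 12.3 and 0.539 CPM in control libraries. In counts, these Dmbx1 levels were 38, 496 and 32 reads in knockdown libraries and 50, 485 and 15 reads in control libraries, so its low values rest on few reads. Library 2 exceeded library 1 of its own group 2.95-fold in the knockdown and 3.22-fold in the control for Barhl1, 3.24-fold and 3.93-fold for Pou4f2, and 16.5-fold and 10.05-fold for Dmbx1.

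The AP-2 genes differed from each other. Tfap2b, the most abundant gene of the set, was at 61.7, 141 and 57.8 CPM in knockdown libraries 1, 2 and 3, against 76.9, 154 and 47.3 CPM in control libraries 1, 2 and 3. It thus stood highest in both libraries numbered 2. Its neighbour Tfap2d was at 18.3, 19.7 and 7.31 CPM in knockdown libraries, against 26.8, 17.3 and 6.51 CPM in control libraries. It was low in both libraries numbered 3 and between 17.3 and 26.8 CPM in the other 4. On the per-length scale of FPKM (fragments scaled to transcript length and library size), the ratio of Tfap2b to Tfap2d was 2.29, 5.10 and 5.27 in knockdown libraries and 1.99, 6.15 and 5.44 in control libraries. The libraries numbered 1 therefore held less Tfap2b per Tfap2d than the other 4.

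The paired-box genes differed at number 2, where Pax7 was highest and Pax3 lowest. Pax7 was at 19.96, 33.3 and 16.6 CPM in knockdown libraries 1, 2 and 3, against 22.7, 37.2 and 14.8 CPM in control libraries 1, 2 and 3, with both libraries numbered 2 on top. Pax3, the less abundant paralogue, was at 3.42, 1.83 and 2.17 CPM in knockdown libraries, against 3.95, 1.90 and 1.94 CPM in control libraries. Pax3 was the one gene of the set with both libraries numbered 1 above the other 4, and the one with both libraries numbered 2 below them. The FPKM ratio of Pax7 to Pax3 was 3.88, 11.7 and 4.73 in knockdown libraries and 3.59, 11.6 and 4.75 in control libraries.

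The remaining genes are Barhl2 and the POU genes Pou4f1 and Pou4f3. Barhl2 was at 5.12, 8.41 and 4.01 CPM in knockdown libraries 1, 2 and 3, against 7.56, 8.84 and 4.28 CPM in control libraries 1, 2 and 3, and so its libraries numbered 1 differed more between the groups than those of Barhl1 did. Pou4f1, a POU gene of sensory and habenular neurons, was at 14.6, 25.1 and 18.1 CPM in knockdown libraries, against 17.5, 27.6 and 14.8 CPM in control libraries, the narrowest range of the set on the log2 scale. Pou4f3 was at 0.781, 1.97 and 1.17 CPM in knockdown libraries, against 0.244, 2.38 and 0.575 CPM in control libraries, or 34, 68 and 49 reads against 10, 94 and 16. Within families, the FPKM ratio of Pou4f2 to Pou4f1 was 0.645, 1.31 and 0.512 in knockdown libraries and 0.495, 1.25 and 0.507 in control libraries. That of Barhl1 to Barhl2 was 1.27, 2.22 and 1.36 in knockdown libraries and 0.714, 2.18 and 1.31 in control libraries. Both ratios were highest in the libraries numbered 2.

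**Figure D1:**
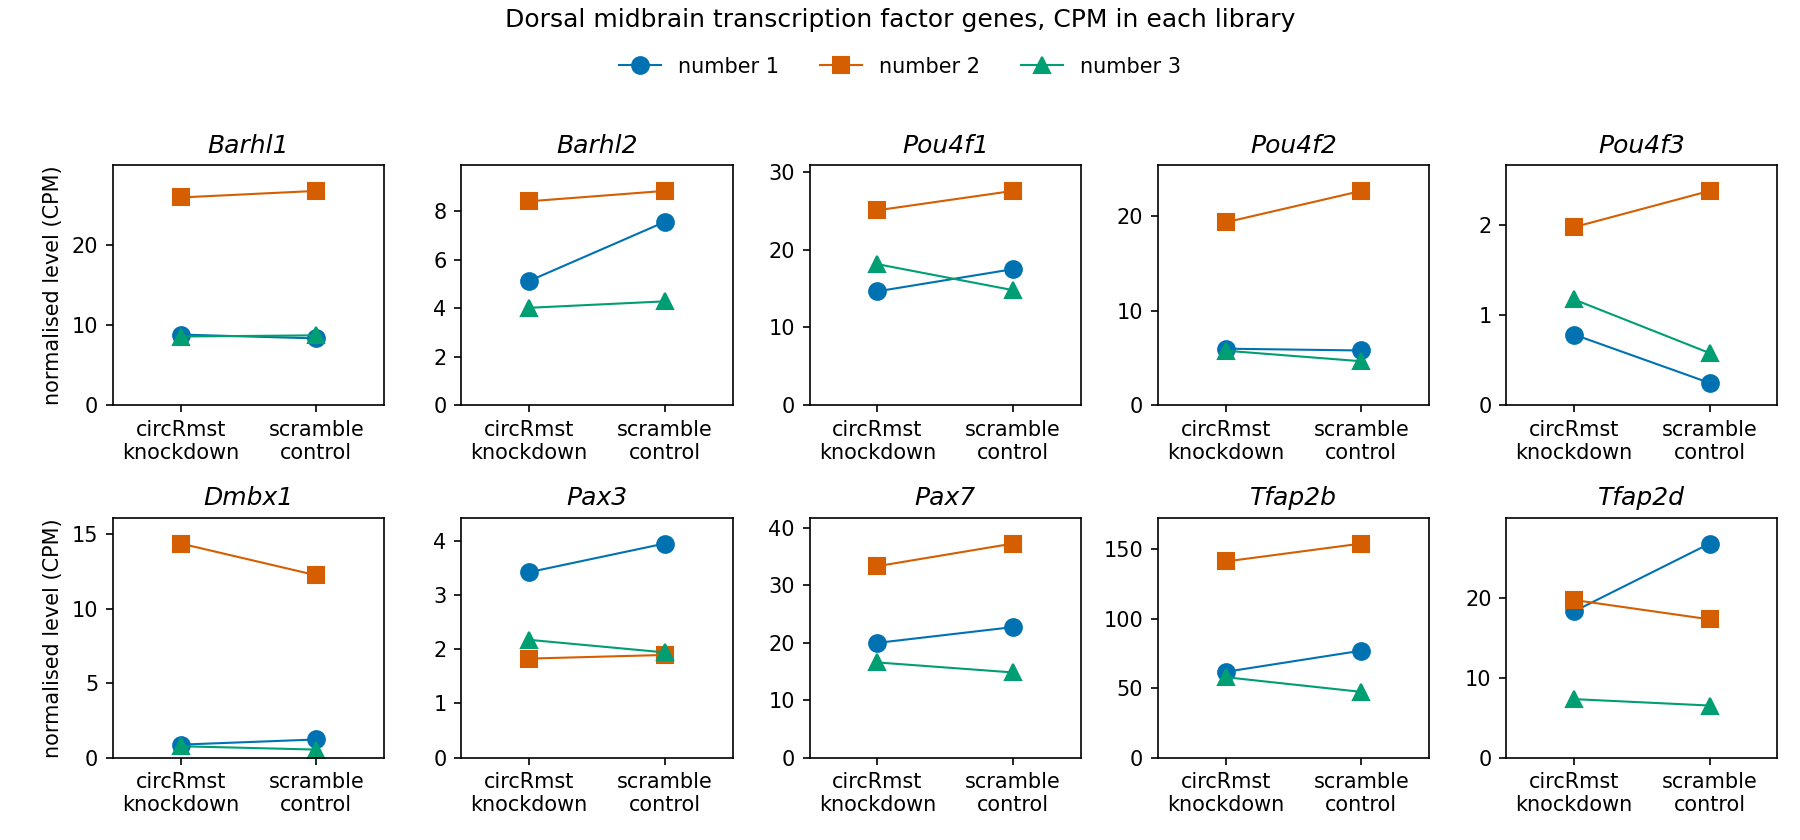
CPM (vertical axes, each from 0) of the 10 genes in the knockdown (left) and control (right) libraries, with lines that join libraries of the same replicate number. Library 2 is on top in both groups for 8 genes, Tfap2d is low in library 3 (7.31 and 6.51 CPM) and Pax3 is highest in library 1 (3.42 and 3.95 CPM).

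Ordered by mean FPKM over the 6 libraries, Tfap2b came first (8.69), followed by Pax7 (2.50), Barhl1 (2.50), Pou4f1 (2.30), Tfap2d (2.22), Pou4f2 (2.00), Barhl2 (1.58), Dmbx1 (0.727), Pou4f3 (0.549) and Pax3 (0.416). Between neighbours in this order, the ranges over the libraries overlapped except for Tfap2b and Pax7, where the lowest Tfap2b value (4.63 FPKM) exceeded the highest Pax7 value (3.80 FPKM). Barhl2 exceeded Dmbx1 in 6 of 6 libraries although their ranges overlapped. The order from Pax7 to Pou4f2 was not the same in each library, and Pax7 exceeded Barhl1 in 4 of 6.

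Between the knockdown and the control, none of the 10 genes differed past the threshold. The means were 14.4 ± 9.97 CPM in the knockdown and 14.6 ± 10.5 CPM in the control for Barhl1, 10.4 ± 7.80 and 11.0 ± 10.1 CPM for Pou4f2, 5.34 ± 7.84 and 4.67 ± 6.58 CPM for Dmbx1, and 86.8 ± 47.0 and 92.7 ± 55.1 CPM for Tfap2b (SD, n = 3 each). In each of these genes the difference between the groups was far smaller than the spread within a group. In edgeR's quasi-likelihood test 0 of the 10 genes passed an adjusted p of 0.05, where the share called over all 17439 genes was 0%. The adjusted p was 1.00 for each gene, and the unadjusted p ran from 0.431 to 0.956. At an unadjusted p under 0.05, 0 of the 10 genes were found, beside 1.1% of all genes tested, and the ranges of the groups overlapped for all 10, where the groups did not overlap in 5.2% of all genes (knockdown above in 2.28%, below in 2.92%).

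The fitted log2 fold changes were small but imprecise. Barhl1 had -0.03 with a 95% interval from -1.11 to 1.06, Pou4f2 had -0.11 (-1.40 to 1.19) and Dmbx1 had 0.16 (-2.31 to 2.63). Tfap2b had -0.10 (-0.99 to 0.79), Tfap2d -0.17 (-1.13 to 0.80), Pax7 -0.11 (-0.79 to 0.58) and Pax3 -0.07 (-0.83 to 0.68). Barhl2 had -0.25 (-0.92 to 0.42), Pou4f1 -0.05 (-0.58 to 0.47) and Pou4f3 0.27 (-1.17 to 1.71). In all, 8 values lay below 0 and 2 above, with a median of -0.09, beside -0.00603 over all genes tested. A change of 2-fold in either direction lay outside the interval for Barhl2, Pou4f1, Pax3, Pax7 and Tfap2b, and inside it for Barhl1, Pou4f2, Pou4f3 and Dmbx1. For Tfap2d a 2-fold fall lay inside the interval and a 2-fold rise outside. The sign depended on single libraries in every gene but Barhl2, whose value stayed between -0.60 and -0.01 with 1 library left out. Without knockdown library 2 the log2 fold change of Dmbx1 was -2.53 and that of Pou4f2 -0.92. Without control library 2 they were 2.56 and 1.00, with an adjusted p of 1.00 in edgeR's test in each case. Both genes were chosen for following the replicate number and were high in both libraries numbered 2. Such swings therefore follow from the choice and are given only as descriptions.

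Taken number by number, the knockdown minus control difference had mixed signs in 9 genes and was negative at each number in Barhl2. For Barhl1 it was 0.08, -0.04 and -0.02 log2 units at numbers 1, 2 and 3, so the same-numbered libraries were nearly equal. For Dmbx1 it was -0.46, 0.23 and 0.46, for Pou4f2 0.05, -0.23 and 0.31, and for Barhl2 -0.56, -0.07 and -0.09. Pou4f3 showed the widest differences, at 1.49, -0.26 and 0.96, on the few reads given above. Tfap2b (-0.32, -0.13 and 0.29), Pax7 (-0.19, -0.16 and 0.16), Pou4f1 (-0.26, -0.14 and 0.29) and Pax3 (-0.20, -0.05 and 0.16) were negative at numbers 1 and 2 and positive at number 3. Tfap2d was at -0.55, 0.19 and 0.17.

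**Figure D2:**
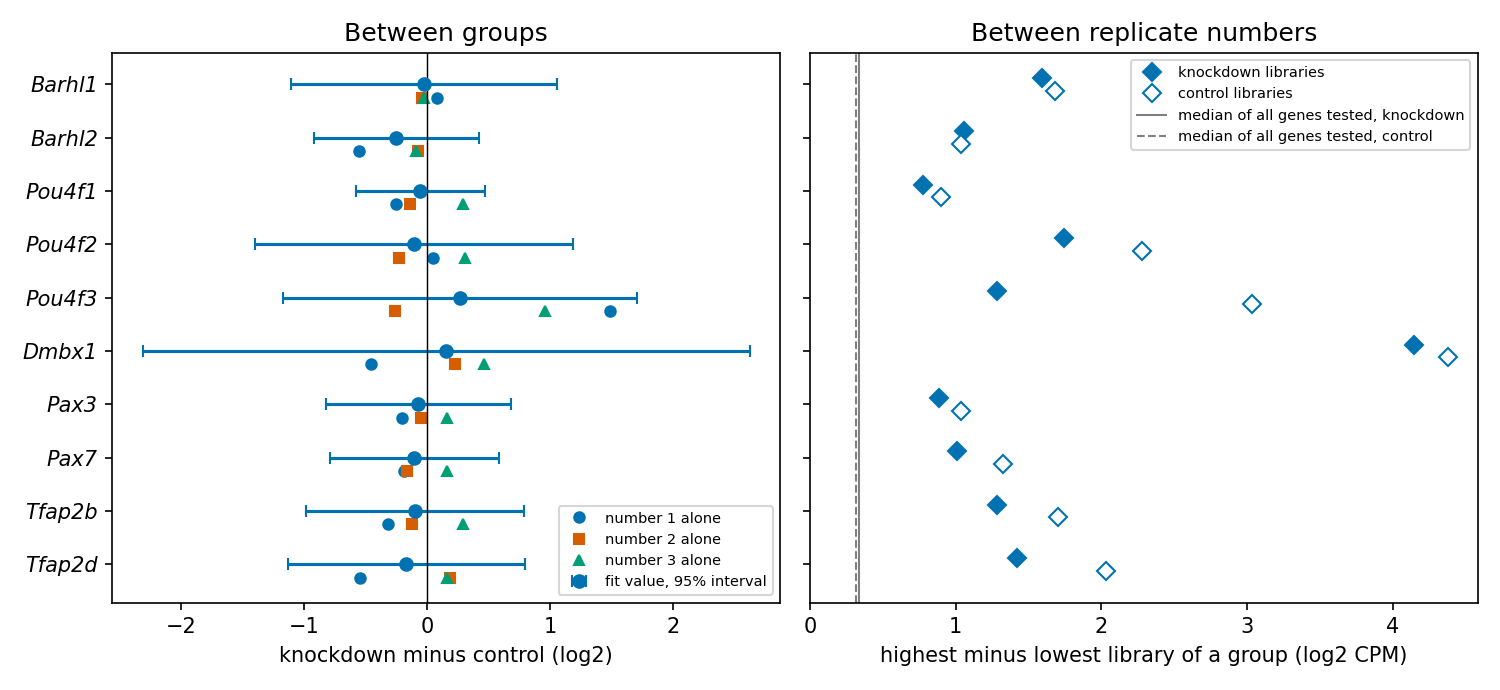
Left, fitted knockdown minus control log2 fold change of each gene with its 95% interval, and the difference at each replicate number alone; right, the range of log2 CPM over the 3 libraries of each group, with the median of all genes tested as grey lines (0.34 in the knockdown, 0.31 in the control). All intervals include 0, and every gene of the set has a wider range than the median gene, up to 4.14 in the knockdown and 4.38 in the control for Dmbx1.

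The size of the differences between replicate numbers was taken as the highest minus the lowest mean log2 CPM of a number, averaged over the groups. It was 4.26 log2 units for Dmbx1 (19.2-fold), 2.16 for Pou4f3, 2.01 for Pou4f2 (4.03-fold), 1.67 for Tfap2d, 1.62 for Barhl1 (3.07-fold), 1.49 for Tfap2b, 1.17 for Pax7, 1.05 for Barhl2, 0.96 for Pax3 and 0.71 for Pou4f1. The median of the set was 1.56, against 0.25 over all genes tested, whose 99th percentile was 1.60. Of the 17439 genes tested, 4 had a larger value than Dmbx1, 53 a larger one than Pou4f2 and 2021 a larger one than Pou4f1. Both libraries numbered 2 stood above the other 4 in 8 of the 10 genes, where 10.1% of all genes tested did. Both libraries numbered 3 stood below the other 4 in 6 genes (Barhl2, Pou4f2, Dmbx1, Pax7, Tfap2b and Tfap2d), where 7.16% of all genes did. Pax3 alone had both libraries numbered 1 above the rest, as in 10.1% of all genes, and both numbered 2 below, as in 9.59%. Both libraries numbered 1 stood below the rest in 0 genes of the set (10.3% of all genes). With Tfap2d and Pax3, the libraries of some number stood apart in all 10 genes, as they did in 44.3% of all genes. In an F test of the replicate number in edgeR, 6 of the 10 genes (Barhl1, Pou4f2, Dmbx1, Pax7, Tfap2b and Tfap2d) passed an adjusted p of 0.05, where 0.155% of all genes did. Nothing is read from these counts, since this contrast chose the set.

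The sum of squares of log2 CPM can be split into a part for the replicate number, a part for the group and a remainder. The number took 99.9% for Barhl1, 98.9% for Dmbx1, 98.5% for Pou4f2, 97.0% for Pax7, 96.9% for Pax3, 96.0% for Tfap2b and 94.7% for Tfap2d. It took less for Pou4f1 (88.4%), Barhl2 (87.2%) and Pou4f3 (74.7%). The group took 6.83% for Barhl2 and 12.6% for Pou4f3, and under 1% for the other 8 genes. Over all genes tested the medians were 47.5% for the number, 7.26% for the group and 34.6% for the remainder, and the number tends to take a larger share than the group by construction, since it has more levels.

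**Figure D3:**
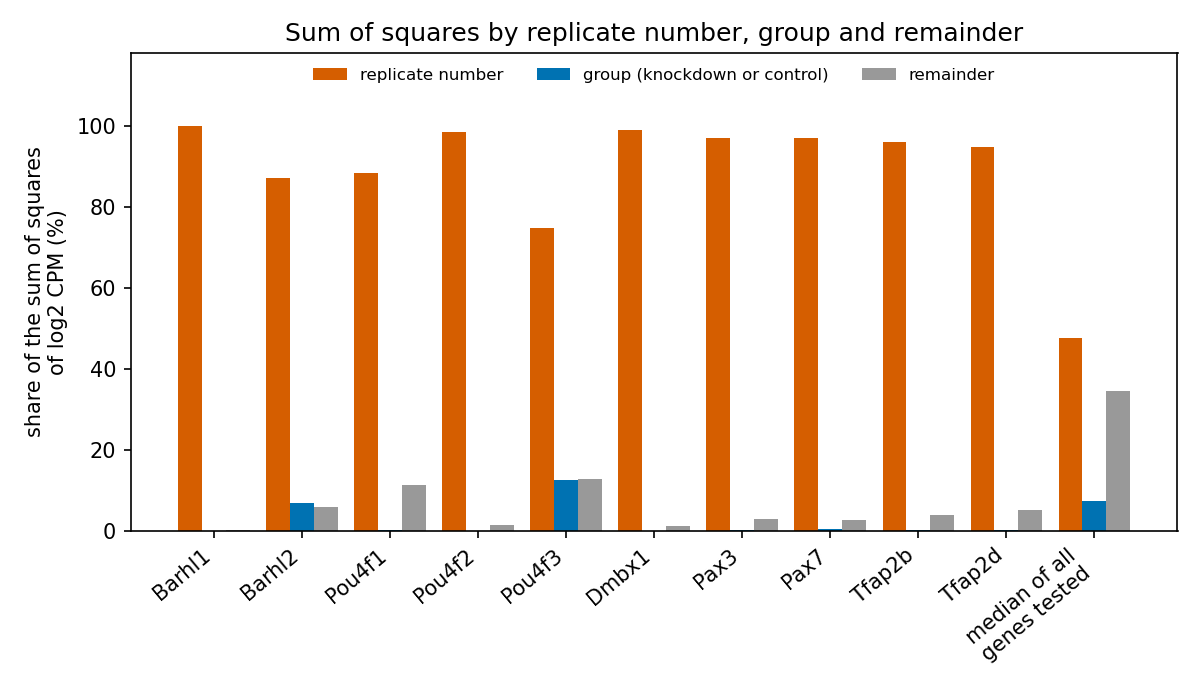
Share of the sum of squares of log2 CPM over the 6 libraries (vertical axis, %) taken by the replicate number, the group and the remainder, for each gene and as the median of each share over all genes tested. The replicate number takes 74.7% (Pou4f3) to 99.9% (Barhl1) in the set, beside a median of 47.5%.

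The genes most like the trio were found by the Pearson r of log2 CPM over 6 libraries with the mean pattern of Barhl1, Pou4f2 and Dmbx1, among 511 genes of at least 1 CPM and an SD of at least 0.5. Such an r over few libraries of shared numbers is a description. The highest were Fibcd1 (r = 0.99), Tfap2b (0.98), Sp5 (0.97), Nr5a2 (0.96), Hs3st3b1 (0.96), Gpr6 (0.96), Pax7 (0.95), Scara5 (0.95), Lef1 (0.94) and Emx2os (0.94). Fibcd1, which encodes a membrane protein that binds acetylated sugars, was at 23.0, 48.8 and 18.9 CPM in knockdown libraries 1, 2 and 3, against 20.8, 50.0 and 18.5 CPM in control libraries. Lef1, which encodes a transcription factor of Wnt signalling, was at 4.96, 23.7 and 1.91 CPM in knockdown libraries, against 6.32, 23.8 and 1.98 CPM in control libraries. Sp5, a known target gene of Wnt signalling, was at 0.436, 3.60 and 0.263 CPM in knockdown libraries, against 0.244, 5.43 and 0.0719 CPM in control libraries. Among the other genes of the set r was 0.83 for Barhl2, 0.77 for Pou4f3 and 0.45 for Tfap2d, while Pou4f1 and Pax3 had an SD under 0.5. The lowest were Rbm20 (-0.97), Xist (-0.96), Mbnl3 (-0.94), Gm33533 (-0.94) and Gm34090 (-0.93). Xist, the RNA that silences an X chromosome in female cells, was at 637, 342 and 937 CPM in knockdown libraries, against 813, 364 and 798 CPM in control libraries. The part of the sex of the embryos in the levels of the set was not tested.

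Other transcription factors of the dorsal midbrain were counted in the same way. Of 25 such genes, all of them tested, 3 passed the F test of the number, beside 0.155% of all genes, and 0 differed between the knockdown and the control. For the number, 10 passed without the filter on low counts, 7 with DESeq2 and 0 with limma on log2 FPKM. Both libraries numbered 2 stood above the other 4 in 7 of the 25, beside 10.1% of all genes tested. Both numbered 3 stood below in 10, beside 7.16% of all genes tested. Lhx2, a LIM homeobox gene, was highest in the libraries numbered 2, at 10.5, 19.2 and 5.50 CPM in knockdown libraries 1, 2 and 3, against 10.1, 20.2 and 6.22 CPM in control libraries (edgeR F test of the number, adjusted p = 0.0032). Its relative Lhx9 was at 42.2, 50.1 and 23.0 CPM in knockdown libraries, against 54.8, 54.4 and 21.8 CPM in control libraries (edgeR F test of the number, adjusted p = 0.016), a profile like that of Tfap2d. Tcf7l2, which encodes a Wnt effector of the same family as Lef1, was highest in the libraries numbered 1, at 219, 86.5 and 56.9 CPM in knockdown libraries and 299, 81.4 and 58.8 CPM in control libraries (adjusted p = 0.000285). Lhx2 and Lhx9 are named here because they passed.

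Tcf7l2 is among the 6 most abundant genes of that list, and the other 5 did not pass the F test of the number. Gata3, a gene of midbrain GABAergic neurons, was at 139, 135 and 122 CPM in knockdown libraries 1, 2 and 3, against 141, 136 and 112 CPM in control libraries. Tal1, of the same neurons, lay between 124 and 159 CPM over all 6 libraries, Ebf3 between 145 and 211, Nfib between 284 and 353, and Nfia between 115 and 162. The summed CPM of the 25 genes was 1799, 1836 and 1655 in knockdown libraries and 2053, 1895 and 1511 in control libraries. That of the 10 genes of the set was 140, 291 and 122 in knockdown libraries and 171, 311 and 104 in control libraries, with both libraries numbered 2 on top.

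Genes of the roof plate and of dorsal patterning were mixed. Of 19 such genes, 12 were tested and 5 passed the F test of the number, beside 0.155% of all genes, and 0 differed between the groups. Zic1 and Zic2, which encode zinc finger factors of the dorsal neural tube, were among those that passed. Zic1 was at 39.4, 16.1 and 2.08 CPM in knockdown libraries 1, 2 and 3, against 42.8, 15.3 and 2.19 CPM in control libraries (adjusted p = 1.51e-05 in edgeR). Zic2 was at 15.9, 4.85 and 2.27 CPM in knockdown libraries, against 16.1, 4.90 and 2.23 CPM in control libraries (adjusted p = 0.000319). The libraries numbered 1 were on top for Zic1 and Zic2 and those numbered 3 lowest, while the trio was low at both of these numbers. Bmp6, a secreted BMP ligand, was at 4.76, 9.23 and 7.19 CPM in knockdown libraries, against 5.85, 9.12 and 6.40 CPM in control libraries, and did not pass. Bmp6 was 1 of 3 tested genes of the list, with Wnt3 and Rspo2, in which both libraries numbered 2 stood above the other 4. This was so in 10.1% of all genes tested, and none of these 3 passed. The summed CPM of the list, to which Zic1 contributed most in the libraries numbered 1, was 101, 59.9 and 35.1 in knockdown libraries and 112, 57.7 and 34.1 in control libraries. On log2 FPKM with limma, 0 or 1 gene of the list passed, depending on the pseudocount and filter.

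Of 16 genes of ventral midbrain dopamine neurons, 0 passed the F test of the number and 0 differed between the groups. Otx2, which is also in the list of other dorsal midbrain transcription factors, lay just over the threshold (edgeR F test of the number, adjusted p = 0.0501). It was highest in the libraries numbered 2, at 51.1 CPM in the knockdown and 54.8 CPM in the control. Both libraries numbered 2 stood above the other 4 in 2 of the 16, beside 10.1% of all genes tested. The count for the number was 4 without the filter on low counts and 3 with DESeq2. Both libraries numbered 3 stood above the other 4 in 8 of the 16, where 7.46% of all genes tested did. Their summed CPM was 858, 983 and 1116 in knockdown libraries 1, 2 and 3, against 970, 972 and 1066 in control libraries. Dcc, a netrin receptor gene, was at 142, 217 and 260 CPM in knockdown libraries, against 220, 214 and 203 CPM in control libraries. En1, a homeobox gene of the midbrain, lay between 99.2 and 115 CPM, and Ret, which encodes the receptor for GDNF, between 86.3 and 124 CPM over all 6 libraries. The part of these dorsal and ventral lists in the levels of the set was not tested.

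**Figure D4:**
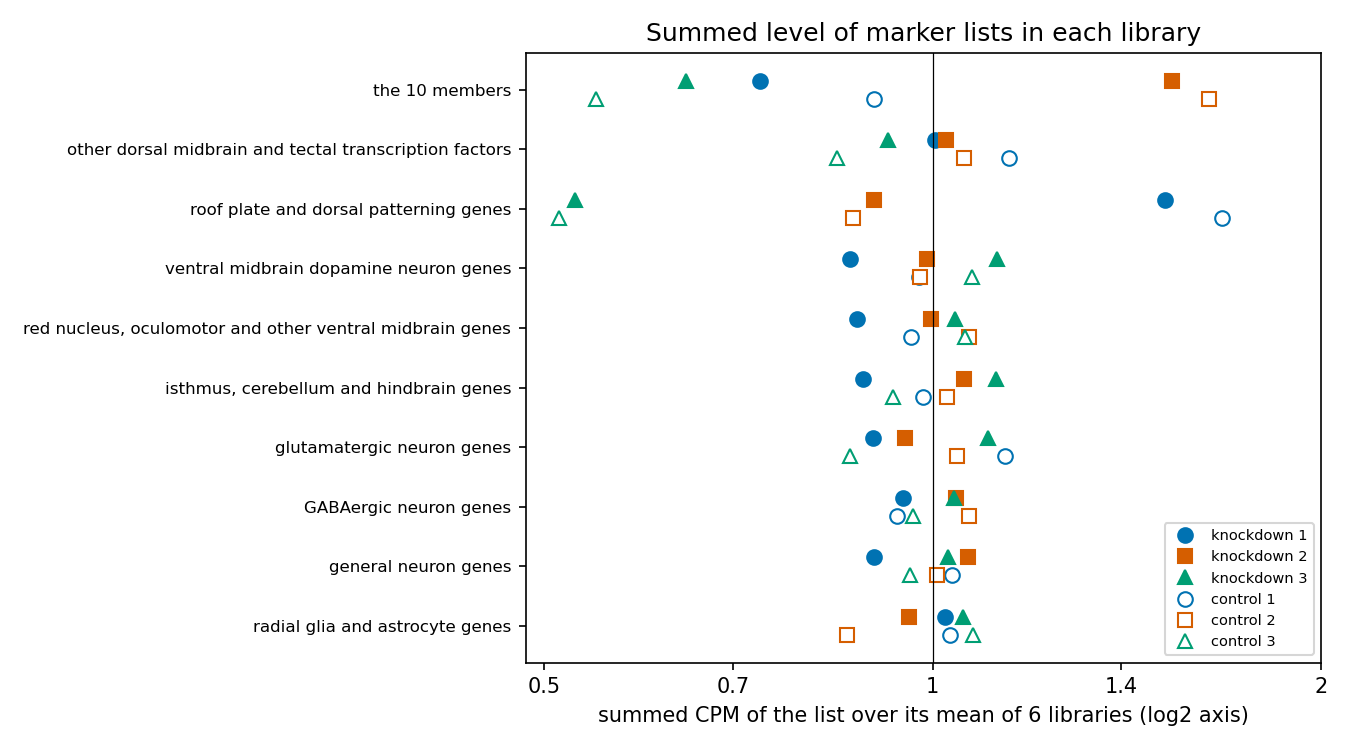
Summed CPM of the set and of 9 marker lists in each library, divided by the mean of the list over the 6 libraries (log2 axis), with filled points for the knockdown and open points for the control. The sum of the 10 genes is highest in the libraries numbered 2 (291 and 311 CPM), that of the roof plate list in those numbered 1 (101 and 112 CPM).

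Markers of other tissues that express POU, Pax or AP-2 factors were also counted. None of the tested genes of sensory neurons and the inner ear (9 tested of 15), neural crest and melanocytes (8 of 14), muscle (4 of 9) or meningeal fibroblasts and pericytes (9 of 11) passed the F test of the number or the test of the knockdown. Both libraries numbered 2 stood above the other 4 in 4 of the 9 tested meningeal genes, beside 10.1% of all genes tested. Both numbered 3 stood below in 4 of the 9, beside 7.16% of all genes tested. Number 2 stood above in 0 sensory, 1 neural crest and 0 muscle genes, and number 3 below in 0, 2 and 1. Ntrk2, the most abundant of the sensory list but also a gene of brain neurons and glia, lay between 401 and 546 CPM. Avil, a gene of sensory ganglia, lay between 1.56 and 2.34 CPM in all 6 libraries. The muscle gene Ttn was at 9.44, 134 and 12.8 CPM in knockdown libraries 1, 2 and 3, against 12.2, 49.1 and 56.8 CPM in control libraries, and Des, another muscle gene, was at or under 0.682 CPM. Meningeal Col3a1 lay between 28.2 and 45.3 CPM. The summed level of the muscle list ran from 12.2 to 137 CPM in the knockdown and from 15.2 to 59.2 CPM in the control, and that of the meningeal list from 89.5 to 129 and from 101 to 111 CPM.

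Lists of neighbouring brain regions and of broad cell classes gave few calls. In the F test of the number 0 genes passed among 7 tested of the red nucleus and ventral midbrain, 10 of the isthmus, cerebellum and hindbrain, 4 of the telencephalon, 8 glutamatergic, 8 GABAergic, 12 general neuronal, 12 radial glial, 10 dividing-cell, 10 oligodendrocyte, 7 microglial and 4 endothelial genes. Both libraries numbered 2 stood above the other 4 in 3 isthmus, cerebellum and hindbrain, 3 GABAergic and 2 endothelial genes. Number 2 was on top in 1 gene each of the red nucleus, glutamatergic and general neuronal lists. It was so in 0 telencephalic, radial glial, dividing-cell, oligodendrocyte and microglial genes, beside 10.1% of all genes tested. Among 13 genes of the subthalamic, mammillary and thalamic regions, where Barhl1 and Barhl2 are also expressed, Tcf7l2 and Lef1 passed. Tcf7l2 is the same call as in the list of other dorsal midbrain transcription factors. Among 4 red blood cell genes, Hbb-y and Hbb-bs passed. The knockdown test called 0 genes in each of these lists. Telencephalic Emx1 lay between 0.502 and 1.26 CPM, and Six3, which is also a midbrain gene, between 17.4 and 23.8 CPM. Slc17a6, the glutamate transporter gene of midbrain excitatory neurons, was at 123, 144 and 117 CPM in knockdown libraries 1, 2 and 3, against 124, 129 and 106 CPM in control libraries, and the general neuronal gene Tubb3 was at 1281, 1771 and 1406 CPM in knockdown libraries, against 1155, 1579 and 1572 CPM in control libraries. Over the tables, the number test called 27 genes, of which 6 belong to the set and 21 do not. Of these 21, 11 were highest in number 1, 8 in number 2 and 2 in number 3.

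**Figure D5:**
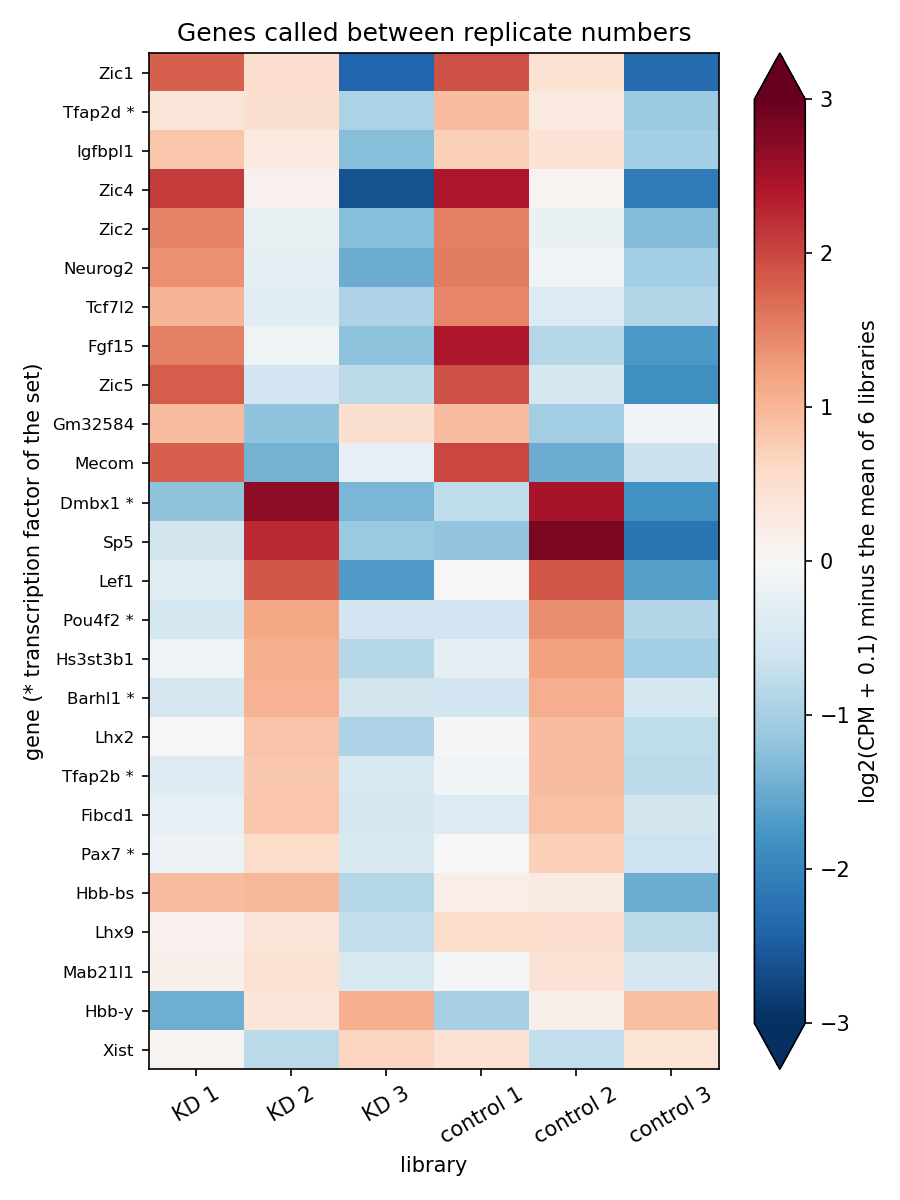
Level of 26 of the 27 genes that passed the F test of the replicate number (stars mark genes of the set), as log2(CPM + 0.1) minus the mean of the 6 libraries, red above and blue below. Zic1, Zic2 and Tcf7l2 are highest in the libraries numbered 1, and 5 of the 6 genes of the set are highest in those numbered 2.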

How the data were processed

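Gene counts are whole numbers of reads per gene, deposited as 1 table per library, and the deposited FPKM values have the Cufflinks layout per the file headers. The submitters' processing notes name bcl2fastq 2.20, Cufflinks 2.2.1, DESeq2 and the build GRCm38 (mm10). The aligner and the counting tool were not given in the sources used here.

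Genes were filtered with filterByExpr, libraries were scaled by TMM, and edgeR 4.0.16 (R 4.3.3) tested the group alone by quasi-likelihood, with Benjamini-Hochberg adjustment over 17439 genes at 0.05. The replicate number was tested beside the group. CPM values are TMM-scaled, log2 CPM has a prior count of 2, intervals are at 95%, and a log2 fold change is knockdown minus control. The fit was tested on simulated data. No pair within a group was a duplicate, since chi-square per degree of freedom ran from 13.8 to 99.6. Libraries held 27248934 to 43646521 counts each.

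The 10 genes, the lists and the tests were chosen with earlier results of these data known. Named besides them are Rmst, the 3 most abundant genes of a list (6 for other dorsal transcription factors), and the 10 most and 5 least alike in pattern. Th, Slc6a3, Lhx2, Lhx9, Otx2, Wnt3, Rspo2, Mecom, Neurog2 and Mab21l1 were added for what they mark or after their values were seen, and some genes that the rule names are not described. Of the genes that passed the test of the replicate number, 1 is not reported here.

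Alternatives were other scalings and filters, DESeq2 1.42.0, limma 3.58.1 (voom, and log2 FPKM with a pseudocount of 0.1 or 1), the replicate block and leaving out libraries.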

Additional observations from a re-analysis of the deposited data

How the results depend on the processing

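No alternative called any of the 10 genes for the knockdown. Pax3 was not tested in the fits of log2 FPKM with a filter on mean FPKM, and DESeq2 gave Dmbx1 no adjusted p. Of the 208 log2 fold changes of the 10 genes under other settings, 168 kept their sign and 40 changed it, 24 of these with 1 library left out. For a gene high in both libraries numbered 2, leaving out 1 of these shifts the value by construction. Other causes of these changes were not tested. Over all genes, the knockdown test called 11 genes without the filter on low counts and 1 with DESeq2, and 0 with each library left out in turn. With 1 library left out, the log2 fold change ran from -0.76 to 0.77 for Barhl1, -0.60 to -0.01 for Barhl2, -0.29 to 0.27 for Pou4f1, -0.92 to 1.00 for Pou4f2, -0.21 to 1.72 for Pou4f3, -2.53 to 2.56 for Dmbx1, -0.38 to 0.38 for Pax3, -0.45 to 0.32 for Pax7, -0.64 to 0.50 for Tfap2b and -0.53 to 0.33 for Tfap2d. On log2 FPKM with a pseudocount of 0.1, with or without a filter, it was 0.11 for Barhl1 and 0.0809 for Pou4f2, and with a pseudocount of 1 it was 0.0717 and 0.0371. With voom it was -0.21 for Dmbx1. Without both libraries of number 2 (chosen after seeing the data, as are the next) it was 0.0406 for Barhl1, 0.0327 for Pou4f1, 0.18 for Pou4f2 and -0.12 for Dmbx1. Without both of number 1 it was 0.0258 for Pou4f1, 0.0672 for Pax3 and 0.17 for Tfap2d.

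With the replicate number as a block, edgeR called 0 genes for the knockdown (258 at an unadjusted p under 0.05). The log2 fold change was then 0.00231 for Barhl1 and 0.0242 for Pou4f2. The median half-width of the 95% interval over the 10 genes was 0.35 log2 units, against 0.93 without the block. Since the set was chosen by the replicate number, narrower intervals with the block follow from the choice. Deviations from the group means correlated between same-numbered libraries at 0.22, 0.23 and 0.04 for numbers 1, 2 and 3 over genes. Knockdown libraries 1 and 2 correlated best with their own number, and library 3 with control library 1 (0.07). Correlations this low cannot decide whether libraries of 1 number share a culture, so the question stays as the labels leave it.

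For the replicate number, the count of 27 genes became 741 without the filter, 225 with DESeq2, 73 without the group term, 17 on log2 FPKM with a pseudocount of 1 and 17 with 0.1 and no filter. It was 45 to 524 with 1 library left out, lowest without knockdown library 2 and highest without control library 3, and 99 and 408 without both libraries of number 2 or 3. Of the 10 genes, 10 were called without the filter, 0 in each fit of log2 FPKM (9 tested in those with a filter on mean FPKM), 5 to 7 with 1 library left out and 1 (Tfap2d) without both of number 2. By list, the count of 3 among other dorsal transcription factors became 10 without the filter, 7 with DESeq2, 5 without the group term, 0 in each fit of log2 FPKM and 3 to 6 with 1 library left out. The count of 5 in the roof plate list became 1, 1 and 0 on log2 FPKM, 3 without both libraries of number 1 and 4 to 6 with 1 library left out. The count of 0 in the dopamine neuron list became 4 without the filter, 3 with DESeq2, 2 without the group term, 1 at an adjusted p under 0.1 and up to 3 with 1 library left out. On log2 FPKM the spread between numbers was 3.26 for Dmbx1 and 1.67 for Pou4f3, against 4.26 and 2.16 in the main setting. It was 0.71 for Pax3 and 0.96 for Barhl2, against 0.96 and 1.05. With library totals it was 0.99 for Barhl2.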

Other observations

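Some genes not yet described by their values also followed the replicate number in both groups. Mecom, which encodes a zinc finger transcription factor, was at 4.57, 0.406 and 1.03 CPM in knockdown libraries 1, 2 and 3, against 5.34, 0.379 and 0.755 CPM in control libraries (edgeR F test of the number, adjusted p = 0.00298). Neurog2, a proneural gene, was at 2.50, 0.725 and 0.263 CPM in knockdown libraries, against 2.88, 0.834 and 0.396 CPM in control libraries (adjusted p = 0.0278). Mab21l1, a gene of the developing eye and midbrain, was at 71.3, 88.1 and 46.2 CPM in knockdown libraries, against 63.3, 86.9 and 45.5 CPM in control libraries (adjusted p = 0.0361). The embryonic globin gene Hbb-y was at 3.33, 12.2 and 19.7 CPM in knockdown libraries, against 4.68, 10.4 and 17.6 CPM in control libraries (adjusted p = 0.00413). The adult globin gene Hbb-bs was at 15.3, 16.0 and 4.35 CPM in knockdown libraries, against 9.15, 9.45 and 2.77 CPM in control libraries (adjusted p = 0.0032). Hbb-bs was also higher in the knockdown at each number, by 0.74, 0.75 and 0.64 log2 units. It did not pass the test of the knockdown with or without the replicate block. These genes were named after their values were seen.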
